A study of Rattus norvegicus with 21 samples.

Results

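Rat islets kept for 24 h in glucolipotoxic (GLT) medium with compound D were compared with the islets of condition 3, to ask which expression differences were left while the compound was present. GLT medium held 27 mM glucose and 300 µM palmitate, a saturated fatty acid, and compound D was given at 300 nM. Compound D carries only a code in the labels, which give neither a structure nor a target for it. The members are 6 of the 21 libraries, chosen by the condition number in the column names: condition 6 (24 h GLT with compound D) and condition 3, each with 1 library from preparations 1, 2 and 3. Condition 4, 24 h GLT without compound, is set beside them. The deposited sample sheet names condition 3 as 24 h control (11 mM glucose, no palmitate), whereas the sample records name the same libraries 3 h GLT. The values below are those of the named columns under either reading, and only the meaning of the comparison depends on it. Each preparation pooled primary islets of 8 Sprague Dawley rats and was divided over the conditions, with about 1000 islet equivalents per sample and RNA sequenced as whole islets. Age and sex of the rats were not given in the sources used here. The 3 preparations were separate isolations, so the n of 3 per condition counts pools of islets and not single animals.

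Glucolipotoxicity is the decline of beta cell function and survival under raised glucose together with saturated fatty acid. In beta cells it is known to engage the unfolded protein response of the endoplasmic reticulum (ER), the integrated stress response with its transcription factor ATF4, antioxidant genes under the factor NRF2, and fatty acid oxidation genes under the PPAR nuclear receptors. Expression of beta cell identity genes is known to decline in the same state, and Txnip, an arrestin-family inhibitor of thioredoxin, is among the genes most readily induced by glucose in islets.

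Depth was 22.8 to 40.2 M counts in genes over the 6 libraries. Levels are given as counts per M counts in genes, scaled between libraries by TMM (CPM), and are listed in the order of preparations 1, 2 and 3. The hormone genes of all 4 main endocrine cell types were abundant in every library, as the tissue label requires, and markers of acinar cells summed to at most 160 CPM. A count of 3, taken as the floor, corresponded to 0.0804 to 0.130 CPM. The condition 3 library of preparation 2 stood apart. Reads with more than 1 alignment made up 23.4% of its reads (15.1 M), against 4.92% to 8.51% in the other 20 libraries. Rn45s, whose transcript is cut into ribosomal RNAs, held 0.0333% of its counts and at least 1.37% in every other library. The share of reads that fell in more than 1 gene was 2.07%, 0.866% and 2.05% in condition 6, against 0.660%, 0.161% and 0.756% in condition 3, so the groups did not overlap in this technical measure. The insulin genes took 11.7%, 43.3% and 10% of the counts in condition 6 and 34.9%, 45.9% and 12.8% in condition 3.

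Of 12576 genes tested, 90 (0.716%) passed edgeR's quasi-likelihood test between condition 6 and condition 3 at a Benjamini-Hochberg adjusted p below 0.05. Of these, 58 (0.461%) were higher and 32 (0.254%) lower with GLT and compound D, and 57 changed at least 2-fold. The share of higher genes among those called was 64.4%, and 82.6% of 23 genes when libraries were scaled by total counts alone. At an unadjusted p below 0.05 there were 1547 genes. All 90 had the same direction in each of the 3 preparations, as did 3890 of all 12576 genes tested. The test compares within preparations and so favours genes of 1 direction. The libraries of the 2 conditions did not overlap for 55 of the 58 higher and 29 of the 32 lower genes, against 1562 of all genes tested (12.4%). Leaving out the condition 3 library of preparation 2 lowered the count to 38 of 12555 genes (0.303%), with 16 higher (0.127%) and 22 lower (0.175%). All 90 genes kept their direction without it and 33 still passed, while 5 others passed in that fit alone. Leaving out any other of the 6 libraries also lowered the count: it was 51, 48 and 48 without the condition 6 libraries of preparations 1, 2 and 3, and 24 and 45 without the condition 3 libraries of preparations 1 and 3. Without whole preparations, over all conditions, edgeR called 0 (preparation 1, 1443 at an unadjusted p below 0.05), 36 (preparation 2) and 4 (preparation 3) genes. A fit of only these 6 libraries called 0 (715 at an unadjusted p below 0.05), whereas DESeq2 on all libraries called 381 and limma voom 113. Leaving out the preparation 1 library of condition 8 (24 h GLT with compound E), which is in neither condition compared but enters the filter, the preparation terms and the shared spread, gave 158 genes, an alternative added after seeing the data. A term for the libraries with over 1.5% of reads in more than 1 gene, added after seeing the data, left 87 genes. The other counts under GLT were larger. In the same fit, 24 h GLT without compound differed from condition 3 in 751 genes (5.97%), with 416 higher (3.31%) and 335 lower (2.66%). The direct test of GLT with compound D against GLT without it called 513 genes (4.08%), 247 higher (1.96%) and 266 lower (2.12%). Condition 3 is not compared in it and enters only the filter, the preparation terms and the shared spread. The comparisons share libraries, so their values are given side by side below without an overlap. Taking condition 2, the 24 h control of the sample records, in place of condition 3 gave 1576 genes (12.5%). Of the 90 genes, 75 had the same sign against condition 2 and 53 of these passed, while 15 (8 of the higher and 7 of the lower) had the opposite sign and 4 of these passed. The direction of those 15 therefore depends on which columns are the control.

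**Figure D1:**
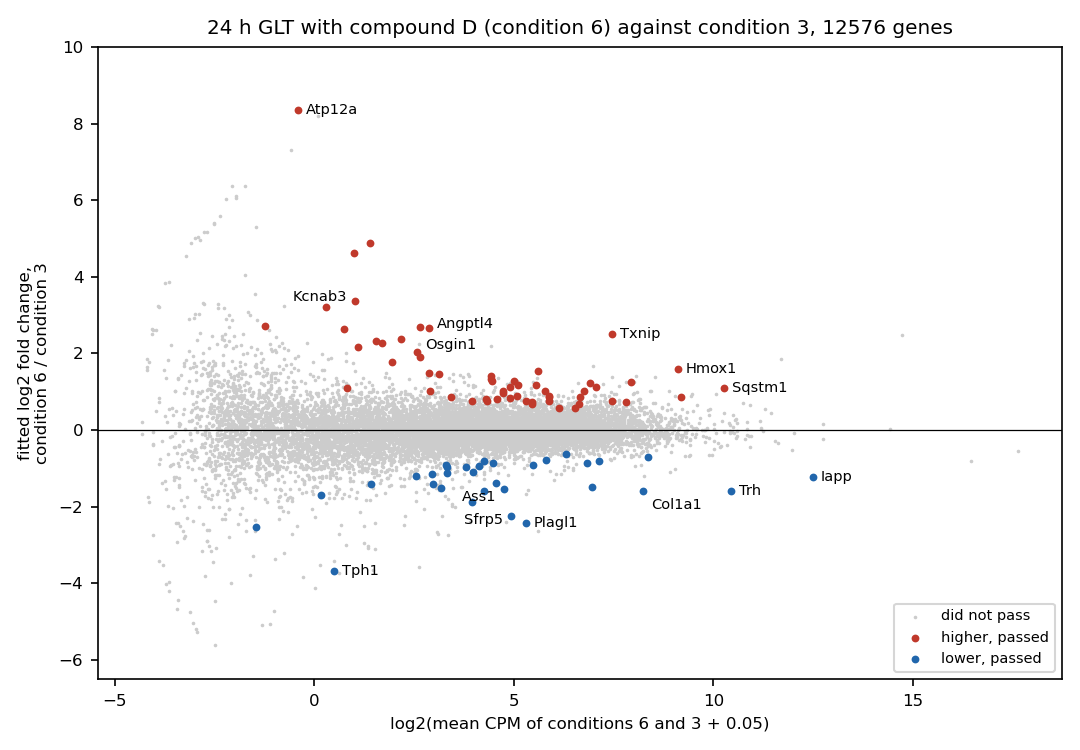
Each point is 1 of 12576 genes, with the log2 of its mean CPM over conditions 6 and 3 (plus 0.05) on the x axis and its fitted log2 fold change, condition 6 over condition 3, on the y axis. The 58 genes that passed and were higher (red) include Txnip at 2.51, and the 32 that passed and were lower (blue) include Plagl1 at -2.43. Atp12a, at the top, has no count in condition 3, so its height is set by the fit and is no measured size.

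Genes that respond to glucose were among the clearest rises. Txnip had 236, 468 and 194 CPM in GLT with compound D, 76.5, 90.9 and 46.9 CPM in GLT without compound, and 36.1, 74.3 and 41.1 CPM in condition 3. Every compound D library lay above every library of the other 2 conditions. The rise over condition 3 was 5.69-fold (log2 2.51, SE 0.35, adjusted p = 0.0037), and the direct test against GLT without compound gave a log2 difference of 2.04 (SE 0.35, adjusted p = 0.00498). GLT without compound lay 0.47 (SE 0.33) above condition 3 on the log2 scale and did not pass (adjusted p = 0.461). Rgs16, a G protein regulator, had 71.9, 82.7 and 64.4 CPM with compound D, 31.8, 32.8 and 35.7 CPM with GLT alone and 25.2, 19.1 and 31.0 CPM in condition 3. It was 2.94-fold above condition 3 (log2 1.56, SE 0.27) and also above GLT alone in the direct test (1.13, SE 0.26, adjusted p = 0.0262). Both belong to the 3 of 18 genes tested on the list of ChREBP and Txnip-related genes that passed, all upward, beside the background of 0.461% of all genes. The list's median log2 change was 0.141, against 0.00492 over all genes. Txnip held without the condition 3 library of preparation 2 (2.59, SE 0.42), while Rgs16 (1.41) kept its direction and no longer passed. Against condition 2, Txnip passed (1.63, SE 0.34, adjusted p = 0.00693) and Rgs16 did not (0.63, SE 0.26, adjusted p = 0.13). Arrdc4, the arrestin-family relative of Txnip, averaged 23.8 CPM with compound D and 12.2 CPM in condition 3 and did not pass (log2 0.96, adjusted p = 0.155).

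Genes of fatty acid use formed another group of rises, and Angptl4, Cpt1a and Acadl did not differ past the test between GLT with and without the compound. Angptl4, a secreted inhibitor of lipoprotein lipase, had 12.8, 12.9 and 11.4 CPM with compound D, 10.2, 7.18 and 14.4 CPM with GLT alone, and 2.23, 1.23 and 3.13 CPM in condition 3 (log2 2.67 for compound D against condition 3, SE 0.55). Cpt1a, the gate of fatty acids into mitochondria, was 1.68-fold higher (log2 0.74, SE 0.16), and Acadl, a long-chain acyl-CoA dehydrogenase, 1.84-fold (log2 0.88, SE 0.15). In none of the 3 did the libraries with compound D overlap those of condition 3. The direct test between GLT with and without compound D did not pass for them. Angptl4 differed by 0.37 (95% interval -0.70 to 1.44), Cpt1a by -0.21 (-0.54 to 0.11) and Acadl by 0.24 (-0.07 to 0.55), with adjusted p of 0.801, 0.547 and 0.454. Of 36 genes tested on the list of fatty acid oxidation and PPAR targets, 4 rose, these 3 among them, and none fell, beside 0.461% of all genes higher. Of the 36, 29 lay above 0 (median log2 change 0.321). Against condition 3, GLT alone raised 7 members and lowered 1, with a median of 0.223. Acot2, an acyl-CoA thioesterase chosen after its values were seen, shows the other pattern on this list, with 10.6, 14.8 and 11.1 CPM with compound D, 54.2, 40.1 and 48.7 CPM with GLT alone and 11.96, 12.3 and 8.51 CPM in condition 3. Dgat2, which completes triglyceride synthesis, was the only 1 of 24 genes on the fatty acid synthesis list to pass, beside 0.461% of all genes higher (8.65, 10.1 and 13.7 CPM with compound D, against 3.05, 3.49 and 5.05 CPM in condition 3, log2 1.49, SE 0.28). Without the condition 3 library of preparation 2 the log2 changes were 2.51 for Angptl4, 0.82 for Cpt1a, 0.85 for Acadl and 1.47 for Dgat2, and none of the 4 passed. Against condition 2, Acadl rose (0.95, SE 0.15, adjusted p = 8.13e-04), whereas Angptl4 (0.93), Cpt1a (0.03) and Dgat2 did not pass, and Dgat2 had the opposite sign (-0.61, SE 0.27).

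**Figure D2:**
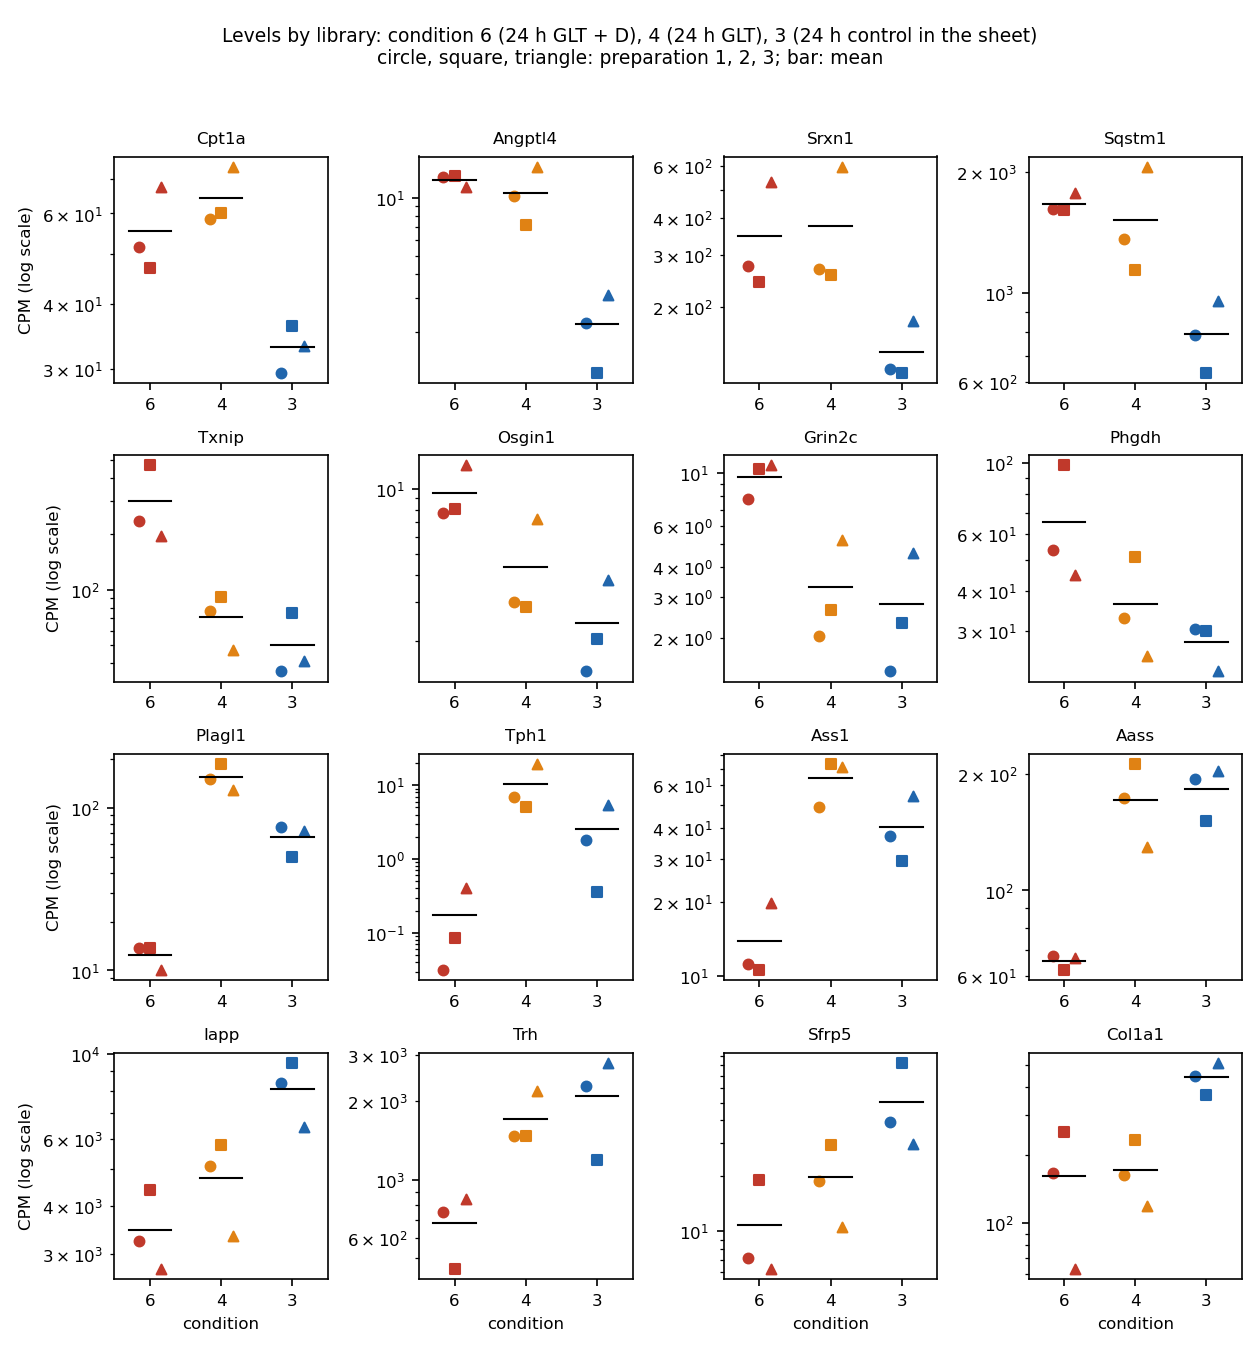
Levels in CPM on a log axis for 16 genes in condition 6, condition 4 and condition 3, from left to right, with 1 point per library (circle, square and triangle for preparations 1, 2 and 3) and a bar at the mean. Txnip stands above both other conditions in condition 6, Angptl4 and Cpt1a are high in conditions 6 and 4, and Plagl1 is low in condition 6 and high in condition 4.

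Antioxidant genes rose in similar number. Of 30 genes tested on the list of NRF2 and antioxidant genes, 5 rose and none fell, beside 0.461% of all genes higher. Of the 30, 26 lay above 0, with a median log2 change of 0.665. Osgin1, an oxidative stress-induced growth inhibitor, had 7.71, 8.03 and 12.8 CPM with compound D, 3.02, 2.86 and 7.25 CPM with GLT alone, and 1.45, 2.04 and 3.79 CPM in condition 3 (log2 2.03, SE 0.25, adjusted p = 0.0037). It was also above GLT alone in the direct test (1.21, SE 0.24, adjusted p = 0.0117). Gsta3, a glutathione transferase, had 4.29, 5.92 and 12.2 CPM with compound D, 1.62, 0.966 and 4.80 CPM with GLT alone and 1.53, 0.601 and 2.10 CPM in condition 3 (log2 2.39, SE 0.39). Reads of its near-identical family members may be split among them, so its level is uncertain. Hmox1, the inducible heme oxygenase, had 970.1, 326 and 1126 CPM with compound D and 250, 115 and 516 CPM in condition 3. Its groups overlapped, since preparation 2 with compound D lay below preparation 3 in condition 3, and the 3.00-fold rise was measured within preparations (log2 1.59, SE 0.33, adjusted p = 0.0396). Srxn1, which repairs oxidised peroxiredoxins, was 2.41-fold higher (274, 242 and 529 CPM against 122, 119 and 179 CPM in condition 3), and Txnrd1, a thioredoxin reductase, 1.68-fold. For Srxn1 and Txnrd1, GLT alone lay as high: their log2 differences between GLT with and without compound D were -0.09 (95% interval -0.57 to 0.39) and -0.03 (-0.32 to 0.27). Without the condition 3 library of preparation 2 only Osgin1 of these 5 passed (2.14, SE 0.30), and the list's median was 0.570. Against condition 2, Osgin1, Gsta3 and Hmox1 rose past the test. Srxn1 (0.11, SE 0.23, adjusted p = 0.807) and Txnrd1 (0.30, SE 0.14, adjusted p = 0.171) did not pass against condition 2. The list had 13 members higher than condition 2, none lower and a median of 0.647. GLT alone raised 6 members against condition 3, with a median of 0.643. Between condition 6 and condition 3, DESeq2 called 13 of the 30 genes, all higher, beside 234 higher among all 12576 genes.

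Promoters of the genes that rose were searched for the antioxidant element TGACNNNGC on both strands, over 250 bases before to 50 bases after each start in RefSeq's GRCr8 table. The element occurred in 8 of the 41 higher genes that had an entry (19.5%) and in 0 of the 29 lower ones, against 14.6% of the promoters of genes tested and 12.2% of all promoters. Gsta3 and Pir are shown because they are higher genes that hold it, Pir with 2 matches. Pir encodes pirin, an iron-binding nuclear protein, and was named after its values were seen (39.1, 45.5 and 59.0 CPM with compound D, against 21.97, 15.9 and 25.0 CPM in condition 3, log2 1.19, SE 0.17, passing also without the library that stood apart). Capitals mark the matches, which begin at position 30 for Gsta3 and -114 for the first in Pir, counted from the annotated start, and the Pir matches read on the opposite strand.
Gsta3 (GRCr8, chr9:31216483-31216782, minus strand): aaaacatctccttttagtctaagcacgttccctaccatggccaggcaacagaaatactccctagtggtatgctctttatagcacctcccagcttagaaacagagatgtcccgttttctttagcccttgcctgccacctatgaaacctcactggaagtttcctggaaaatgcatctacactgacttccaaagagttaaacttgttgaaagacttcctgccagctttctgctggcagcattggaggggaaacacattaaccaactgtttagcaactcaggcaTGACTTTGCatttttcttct
Pir (GRCr8, chrX:33851000-33851299, minus strand): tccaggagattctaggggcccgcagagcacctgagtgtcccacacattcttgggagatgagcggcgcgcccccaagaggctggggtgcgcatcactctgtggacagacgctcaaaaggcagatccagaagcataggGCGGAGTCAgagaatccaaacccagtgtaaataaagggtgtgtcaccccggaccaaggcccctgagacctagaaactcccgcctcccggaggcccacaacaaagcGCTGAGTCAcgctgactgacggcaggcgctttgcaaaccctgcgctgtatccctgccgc
A match describes these letters in this window only.

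The integrated stress response list showed 5 rises and no fall among 40 genes tested, beside 0.461% of all genes higher. Of the 40, 37 lay above 0 (median log2 change 0.454). Phgdh, the first enzyme of serine synthesis, had 53.7, 98.5 and 44.9 CPM with compound D, 32.98, 50.9 and 25.1 CPM with GLT alone, and 30.5, 30.0 and 22.4 CPM in condition 3. It was 2.27-fold above condition 3 (log2 1.18, SE 0.16, adjusted p = 0.0037) and above GLT alone (0.84, SE 0.16, adjusted p = 0.0103). Psat1, the next enzyme of that pathway, was 2.01-fold higher than in condition 3 (61.8, 104 and 57.2 CPM against 36.4, 39.5 and 30.9 CPM) and likewise higher than with GLT alone (log2 0.81, SE 0.19, adjusted p = 0.0309). Gdf15, a stress-induced cytokine, had 25.3, 39.4 and 28.7 CPM with compound D and 9.85, 9.53 and 16.8 CPM in condition 3 (log2 1.41, SE 0.28). Chac1, which degrades glutathione, had 128, 221 and 95.9 CPM with compound D and 69.2, 85.6 and 53.9 CPM in condition 3 (log2 1.02, SE 0.22). Trib3, a pseudokinase induced by ATF4, was 2.43-fold higher (56.0, 41.9 and 39.2 CPM against 15.3, 15.03 and 26.5 CPM in condition 3, log2 1.28, SE 0.28). In none of the 5 genes did the groups overlap. Against condition 2 the direction turned for Chac1, which was lower with compound D and passed (log2 -1.17, SE 0.22, adjusted p = 0.00339), and for Trib3, which did not pass (-0.77, SE 0.27). Phgdh rose against condition 2 as well (1.55, SE 0.17), whereas Gdf15 (0.73, adjusted p = 0.0993) and Psat1 (0.48, adjusted p = 0.116) did not pass. Over the list 3 members were higher than condition 2 and 9 lower (median -0.049). Phgdh was the 1 member that also passed without the condition 3 library of preparation 2 (1.03, SE 0.17). Other members were high with GLT alone and near condition 3 with compound D, and both were named after their values were seen. Atf3, a stress-induced transcription factor, averaged 10.5 CPM with compound D, 39.5 CPM with GLT alone and 6.78 CPM in condition 3. Ppp1r15a, which restores translation, averaged 75.9, 175 and 61.0 CPM in the same order. Neither passed between condition 6 and condition 3, with log2 changes of 0.68 (95% interval 0.00 to 1.35) and 0.38 (-0.11 to 0.88). GLT alone raised 10 members of the list against condition 3 (median 0.398), and the direct test between GLT with and without compound D called 3 higher and 4 lower.

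Trib3 and Chac1 were the 2 of 41 higher genes with a promoter entry (4.88%) that held the ATF4 element TGATGNAA on either strand, against 2.19% of the promoters of genes tested, 3.82% of all promoters and 0 of the 29 lower genes. Both matches read on the strand opposite to the gene and are in capitals, at position -21 in Trib3 and -167 in Chac1. Trib3 was named after its values were seen.
Trib3 (GRCr8, chr3:161275484-161275783, minus strand): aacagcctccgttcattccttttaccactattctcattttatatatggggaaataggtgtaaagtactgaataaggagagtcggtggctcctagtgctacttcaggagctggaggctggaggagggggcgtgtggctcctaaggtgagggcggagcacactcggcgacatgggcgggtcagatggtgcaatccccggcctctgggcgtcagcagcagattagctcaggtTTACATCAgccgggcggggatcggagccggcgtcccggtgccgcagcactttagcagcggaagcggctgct
Chac1 (GRCr8, chr3:126795881-126796180, plus strand): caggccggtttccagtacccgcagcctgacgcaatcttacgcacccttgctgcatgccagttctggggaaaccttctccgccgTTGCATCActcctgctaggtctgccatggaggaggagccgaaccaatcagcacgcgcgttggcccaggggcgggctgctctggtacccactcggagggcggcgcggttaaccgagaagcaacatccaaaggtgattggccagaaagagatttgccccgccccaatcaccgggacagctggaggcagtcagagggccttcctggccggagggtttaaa
The CRE (TGACGTCA), the ATF6 site (TGACGTGG) and the sterol element TCACNCCAC each occurred in 1 of the 41 higher and 0 of the 29 lower genes, in 1.91%, 0.637% and 1.13% of all promoters and 3.17%, 0.875% and 1.12% of those of genes tested. The E-box CACGTG occurred in 3 higher and 4 lower genes, and in 6.65% of all promoters and 9.16% of those of genes tested. The interferon factor core GAAANNGAA occurred in 1 higher and 2 lower genes, and in 9.5% of all promoters and 7.02% of those of genes tested.

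Further large rises belonged to no single list. Alpl, the tissue-nonspecific alkaline phosphatase, had 9.50, 18.8 and 4.77 CPM with compound D, 6.07, 9.96 and 3.63 CPM with GLT alone and 1.56, 1.38 and 1.53 CPM in condition 3 (log2 2.69, SE 0.45). Grin2c, an NMDA glutamate receptor subunit, had 7.74, 10.5 and 10.8 CPM with compound D, 2.04, 2.63 and 5.23 CPM with GLT alone, and 1.45, 2.31 and 4.59 CPM in condition 3. It resembled Txnip in that GLT alone differed little from condition 3 (log2 0.26, adjusted p = 0.632) while the direct test between GLT with and without compound D passed (1.66, SE 0.27, adjusted p = 0.00367). Avpr1b, a vasopressin receptor (log2 2.27, SE 0.49), and Cntfr, a receptor subunit for ciliary neurotrophic factor (1.77, SE 0.33), were raised over condition 3 and did not pass between GLT with and without compound D, with differences of -0.08 (95% interval -1.05 to 0.88) and -0.10 (-0.76 to 0.57). Against condition 2, Cntfr turned and passed as lower with compound D (-1.61, SE 0.31, adjusted p = 0.00429), and Avpr1b did not pass (0.71, SE 0.46). Grin2c alone of these 4 passed without the condition 3 library of preparation 2 (1.92, SE 0.33). At low level, and chosen after its values were seen, Atp12a, a proton and potassium pump, had 1.07, 2.38 and 0.751 CPM with compound D, 0.0754, 0.193 and 0.107 CPM with GLT alone, and no count in any condition 3 library. Against a floor of 3 counts per library this is at least 13.6-fold higher. Sqstm1, the selective autophagy receptor and also chosen after its values were seen, was 2.15-fold higher at a high level (1623, 1613 and 1779 CPM with compound D, against 786, 634 and 956 CPM in condition 3), and GLT alone lay at 1367, 1144 and 2063 CPM. Both genes passed without the library that stood apart.

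Among the genes that fell, Plagl1 and Tph1 lay on opposite sides of condition 3 with and without the compound. Plagl1, an imprinted zinc finger transcription factor, had 13.8, 13.8 and 10.1 CPM with compound D, 152, 186 and 129 CPM with GLT alone, and 76.6, 49.9 and 72.5 CPM in condition 3. The levels of the 3 conditions did not overlap. It was 5.38-fold lower than in condition 3 with compound D (log2 -2.43, SE 0.34, adjusted p = 0.0037) and higher than in condition 3 with GLT alone (1.21, SE 0.33, adjusted p = 0.0437). Tph1, the serotonin synthesis enzyme, had 0.0313, 0.0864 and 0.402 CPM with compound D, 6.82, 5.14 and 19.3 CPM with GLT alone and 1.80, 0.361 and 5.45 CPM in condition 3. Its compound D libraries lay under the floor in preparations 1 and 2, so the size of the fall (log2 -3.68, SE 0.77, adjusted p = 0.0401) is uncertain, and the lowest condition 3 library lay below the highest compound D library. Without that condition 3 library, of preparation 2, Plagl1 (-2.68, SE 0.34) and Tph1 (-4.20, SE 0.61) both passed. Against condition 2, Plagl1 (-5.12, SE 0.38, adjusted p = 2.4e-06) and Tph1 (-4.59, SE 0.77, adjusted p = 0.0016) were lower with compound D. For Plagl1 this fall exceeds that against GLT alone (-3.63), so GLT alone lay below condition 2 as well. For Tph1 it is smaller than that against GLT alone (-5.81), so GLT alone lay above condition 2. The opposite sides of Plagl1 therefore depend on which columns are the control.

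Among genes of ER protein folding, 2 fell below condition 3 with compound D. Derl3, which acts in ER-associated degradation, had 7.65, 12.9 and 7.99 CPM with compound D, 18.6, 30.9 and 25.4 CPM with GLT alone and 24.8, 27.5 and 33.6 CPM in condition 3 (log2 -1.59, SE 0.28, adjusted p = 0.0155). Pdia4, a disulfide isomerase, had 240.1, 246 and 274 CPM with compound D, 417, 468 and 394 CPM with GLT alone and 441, 339 and 446 CPM in condition 3 (log2 -0.69, SE 0.15, adjusted p = 0.041). Both lay below the other conditions in every preparation, and both passed without the library that stood apart. They were the 2 of 32 genes tested on the ER chaperone list that passed, both lower, beside 0.254% of all genes, and 27 of the 32 lay below 0 (median -0.149). Hspa5 (BiP), the most abundant of these chaperone genes, had 2688, 2717 and 2927 CPM with compound D, 6075, 5529 and 6259 CPM with GLT alone and 3502, 3442 and 3505 CPM in condition 3. Its log2 difference between condition 6 and condition 3 was -0.33 (95% interval -0.62 to -0.03) and did not pass (adjusted p = 0.336), although the groups did not overlap. Against condition 3, GLT alone raised 5 members with a median of 0.305. The direct test between GLT with and without compound D called 8 members, all lower with compound D (median -0.459).

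Of 28 beta cell identity genes tested, 2 fell with compound D and none rose (median -0.150), beside 0.254% of all genes lower. Both still passed without the library that stood apart. Iapp, among these 2, encodes amylin, which beta cells secrete with insulin. It had 3236, 4397 and 2742 CPM with compound D, 5081, 5769 and 3346 CPM with GLT alone and 8376, 9464 and 6450 CPM in condition 3. Iapp was 2.35-fold lower than in condition 3 (log2 -1.23, SE 0.19, adjusted p = 0.00726), and its difference from GLT alone did not pass (-0.45, SE 0.19, adjusted p = 0.236). Its groups with compound D and in condition 3 did not overlap, and it passed without the condition 3 library of preparation 2 (-1.18, SE 0.21). Against condition 2, Iapp was lower with compound D as well (-1.96, SE 0.20, adjusted p = 2.34e-05). The list as a whole then had 5 members higher, 4 lower and a median of 0.12, so its direction depends on which columns are the control. Other members had levels with compound D near those of condition 3. The cation channel gene Trpm5 had 51.7, 52.5 and 28.1 CPM with compound D, 12.1, 13.2 and 6.51 CPM with GLT alone and 38.4, 51.5 and 27.9 CPM in condition 3. Ucn3, a marker of mature beta cells, had 195, 356 and 154 CPM with compound D, 121, 159 and 82.3 CPM with GLT alone and 225, 276 and 153 CPM in condition 3. Trpm5 and Ucn3, chosen after their values were seen, differed between condition 6 and condition 3 by 0.17 (95% interval -0.55 to 0.88) and 0.09 (-0.42 to 0.59) and did not pass. GLT alone lowered 6 members of the list against condition 3 (median -0.401), and the direct test between GLT with and without compound D called 3 higher with compound D and none lower. The hormone genes did not pass, and their preparations spread widely. Ins1 differed by -0.54 on the log2 scale (95% interval -1.88 to 0.81), Ins2 by -0.81 (-2.01 to 0.39), Gcg by 0.04 (-0.45 to 0.52), Sst by -0.44 (-1.49 to 0.60) and Ppy by -0.65 (-1.93 to 0.62). Reads of Ins1 and Ins2 may be split between these close copies. Of the prohormone processing and granule genes 0 of 27 passed, beside 0.716% of all genes (4 at an unadjusted p below 0.05, 0 by DESeq2 and 0 by limma voom). Cpe, a carboxypeptidase of prohormone processing, differed by -0.23 (-0.60 to 0.14) and Scg2, a granin, by -0.51 (-0.89 to -0.13).

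The matrix genes that fell with compound D were lower than condition 3 in GLT alone as well, but not lower than condition 2 past the test. Col1a1, a chain of type I collagen, had 168, 253 and 62.98 CPM with compound D, 163, 234 and 119 CPM with GLT alone and 448, 369 and 511 CPM in condition 3 (log2 -1.59, SE 0.34, adjusted p = 0.0451). Postn, a matrix protein of fibroblasts, had 68.1, 85.4 and 87.6 CPM with compound D and 140, 117 and 192 CPM in condition 3 (log2 -0.87, SE 0.17). Col5a3, a chain of type V collagen, had 36.4, 37.3 and 19.6 CPM with compound D and 62.1, 52.8 and 58.8 CPM in condition 3 (log2 -0.92, SE 0.19). These 3 of 40 genes tested on the matrix list fell and none rose, beside 0.254% of all genes lower. On the list 36 lay below 0 and the median was -0.593. For GLT alone 2 were higher and 4 lower, with a median of -0.624. Against condition 2, Col1a1 (0.34, SE 0.33) and Postn (0.33, SE 0.17) had the opposite sign and Col5a3 lay at -0.16 (SE 0.19), none past the test, and the list had 3 members higher, 3 lower and a median of -0.074. Col1a1 passed without the library that stood apart (-1.87, SE 0.35) and the other 2 did not. Markers of stellate cells and fibroblasts moved with this group. All 13 of the 13 markers tested lay below 0 (median -0.617), 1 of them, Col1a1, past the test. Their summed level was 1071, 1267 and 458 CPM with compound D, 1005, 1176 and 644 CPM with GLT alone and 1925, 1478 and 1798 CPM in condition 3. Matrix and marker lists share genes, Col1a1 and Sparc among them. In these whole-islet libraries, fewer cells of a type and less RNA per cell cannot be told apart, and the part of either in the matrix result was not tested. The summed markers of the other 11 cell types overlapped between conditions 6 and 3, beta (85850 to 582400 CPM and 106100 to 566700 CPM), endothelial (63.2 to 201 CPM and 129 to 174 CPM) and macrophage markers (64.9 to 110 CPM and 89.1 to 127 CPM) among them. Lymphocyte markers summed to 14.8, 5.6 and 5.9 CPM with compound D and 8.0, 6.9 and 6.9 CPM in condition 3, so only preparation 1 was higher with compound D. None of the 9 tested passed. The lymphocyte genes Cd3d, Cd3e and Ms4a1 had no count in condition 3 and averaged at most 0.501 CPM with compound D. Cd4, the most abundant of the 9, differed by -0.14 on the log2 scale.

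The remaining large falls were in secreted factors, amino acid enzymes and channels. Sfrp5, a secreted Wnt antagonist, had 7.15, 19.0 and 6.25 CPM with compound D, 18.8, 29.4 and 10.6 CPM with GLT alone and 39.2, 82.2 and 29.9 CPM in condition 3 (log2 -2.25, SE 0.30, adjusted p = 0.0037). Trh, the precursor of thyrotropin-releasing hormone, had 752, 457 and 842 CPM with compound D, 1463, 1473 and 2191 CPM with GLT alone and 2286, 1185 and 2799 CPM in condition 3 (log2 -1.59, SE 0.30). Spp1, osteopontin and a duct marker, had 5.36, 4.23 and 10 CPM with compound D and 31.5, 9.20 and 32.3 CPM in condition 3, where the groups overlapped (log2 -1.87, SE 0.38). In these 3 genes the direction was the same in every preparation. Ass1, argininosuccinate synthase of arginine formation, had 11.2, 10.5 and 19.8 CPM with compound D, 48.8, 73.1 and 71.3 CPM with GLT alone and 37.4, 29.3 and 54.3 CPM in condition 3. It was 2.92-fold below condition 3 (log2 -1.54, SE 0.31), and also lower than with GLT alone in the direct test (-2.21, SE 0.32, adjusted p = 0.00199). Aass, the first enzyme of lysine breakdown, had 67.7, 62.2 and 66.9 CPM with compound D, 173, 212 and 129 CPM with GLT alone and 195, 151 and 204 CPM in condition 3 (log2 -1.49, SE 0.20, adjusted p = 0.0037). Its direct test against GLT alone also passed (-1.36, SE 0.20, adjusted p = 0.00202). Kcnk2, a background potassium channel (log2 -1.52, SE 0.23), and Tspan2, a tetraspanin (-1.42, SE 0.21), fell to 4.98, 3.97 and 4.72 CPM and to 4.73, 4.67 and 3.14 CPM with compound D. All 7 of these genes passed without the condition 3 library of preparation 2. P2rx3, an ATP-gated cation channel (log2 -0.96, SE 0.17), and Npas2, a clock transcription factor (-0.94, SE 0.18), were single calls on their lists. They were the only members to pass on the ion channel list (35 tested) and the clock list (19 tested), beside 0.254% of all genes lower. Neither passed without that library. Against condition 2, Sfrp5, Trh, Spp1, Ass1 and Aass were lower with compound D past the test. Kcnk2 (-0.51, adjusted p = 0.167), Tspan2 (-0.38, adjusted p = 0.253), P2rx3 (-0.24, adjusted p = 0.381) and Npas2 (-0.54, adjusted p = 0.0646) kept their sign and did not pass.

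**Figure D3:**
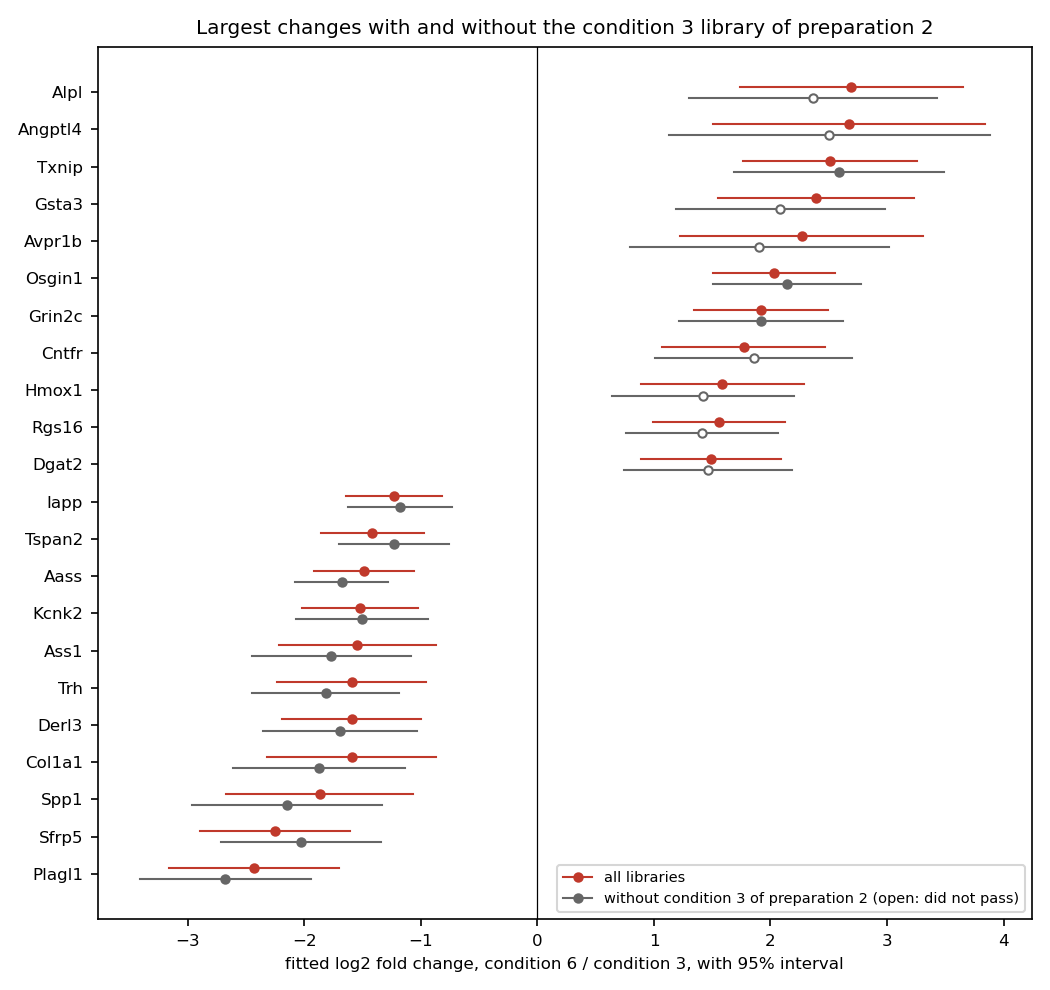
Fitted log2 fold changes, condition 6 over condition 3, with 95% intervals for 11 of the 12 largest rises and 11 of the 12 largest falls at a mean of at least 5 CPM, with all libraries (red) and without the condition 3 library of preparation 2 (grey, open where the gene no longer passed). Signs are the same in both fits for all 22 genes, while most rises are open and all falls are filled.

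None of the 8 genes that GLT alone changed most against condition 3 passed when compound D was present, 6 of them high with GLT alone and the interferon-induced Oas1a and Mx2 low. Oas1a and Mx2 lay low with compound D as well, at log2 -3.66 and -2.72 against condition 3, beside -4.22 and -3.59 with GLT alone. Il23a, a cytokine subunit, had 5.83, 5.23 and 6.01 CPM with compound D, 51.2, 42.0 and 94.2 CPM with GLT alone and 4.54, 4.60 and 7.08 CPM in condition 3. The log2 difference between condition 6 and condition 3 was 0.12 (95% interval -0.41 to 0.64). Abcb1a, a drug efflux pump, had 5.36, 1.43 and 10.6 CPM with compound D, 52.3, 30.4 and 93.7 CPM with GLT alone and 2.70, 0.631 and 5.89 CPM in condition 3, a difference of 0.95 (0.09 to 1.81, adjusted p = 0.336) between condition 6 and condition 3. Gpr50, a melatonin receptor-related gene, averaged 0.157 CPM with compound D and 0.0776 CPM in condition 3, both near or under the floor, and reached 7.39, 6.30 and 9.14 CPM with GLT alone. Fst, an activin-binding protein, differed between condition 6 and condition 3 by 1.05 (-0.33 to 2.44), Rorb, an orphan nuclear receptor, by 1.00 (-0.21 to 2.22) and Tac1, the substance P precursor, by 0.69 (-0.24 to 1.61). Against condition 2, these 3 were lower with compound D and passed: Fst by -2.20 (adjusted p = 0.0185), Rorb by -2.97 (adjusted p = 0.00272) and Tac1 by -4.07 (adjusted p = 3.79e-05). Il23a, Abcb1a, Gpr50, Oas1a and Mx2 did not pass against condition 2. The 8 genes were named for their change under GLT alone against the same condition 3 libraries. A smaller value with compound D is partly a matter of that choice. The direct test against GLT alone shares the condition 4 libraries that entered the choice, so the size of its values is partly a matter of it too. For the 6 high genes it gave -3.37 (Il23a), -3.47 (Abcb1a), -5.53 (Gpr50), -3.40 (Fst), -2.61 (Rorb) and -2.76 (Tac1), each with an adjusted p of at most 0.0128. For Oas1a (0.56, adjusted p = 0.856) and Mx2 (0.87, adjusted p = 0.704) it did not pass.

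Immediate early genes gave 0 of 35 members past edgeR's test between condition 6 and condition 3, where 0.716% of all genes passed. At that share a list of 35 genes may hold no call. At an unadjusted p below 0.05 there were 5, beside 1547 of all 12576 genes, and DESeq2 and limma voom each called 0. The median log2 change was 0.186. Against the same condition 3 libraries, GLT alone raised 12 and lowered none (median 0.885), beside 3.31% of all genes higher. The direct test between GLT with and without compound D called 9 lower and 1 higher with compound D, beside 2.12% and 1.96% of all genes. Nr4a2, an orphan nuclear receptor, averaged 3.71 CPM with compound D, 15.2 CPM with GLT alone and 6.46 CPM in condition 3. Klf4, a zinc finger factor, averaged 2.91, 12.2 and 3.52 CPM in the same order, and both were named after their values were seen. The most abundant members, Btg2 and Junb, differed between condition 6 and condition 3 by 0.39 (95% interval -0.10 to 0.89) and -0.40 (-1.23 to 0.43). Against condition 2 the list lay lower: 20 of the 35 members were lower with compound D past the test, none was higher and the median was -1.588.

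Interferon-induced genes were the list with the lowest median, -0.970 over 43 genes tested, of which 38 lay below 0. None passed edgeR's test, beside 0.716% of all genes (17 at an unadjusted p below 0.05, all lower, 6 lower by DESeq2 and 0 by limma voom). Oas1a, an antiviral RNA sensor, had 0.439, 0.259 and 0.456 CPM with compound D, 0.188, 0.116 and 0.569 CPM with GLT alone and 9.77, 0.872 and 4.49 CPM in condition 3. Mx2, an antiviral GTPase, had 1.79, 2.81 and 1.61 CPM with compound D, 1.36, 1.20 and 0.889 CPM with GLT alone and 30.8, 2.07 and 11.8 CPM in condition 3. In both genes the condition 3 library of preparation 2 was the lowest of its group, and condition 3 varied more between preparations than the other conditions did. The log2 changes between condition 6 and condition 3 were -3.66 (SE 0.87, adjusted p = 0.0665) for Oas1a and -2.72 (SE 0.89, adjusted p = 0.19) for Mx2. Without that library they were -4.12 and -3.41, and Oas2, a related sensor, was the 1 member to pass (-2.21). For GLT alone against condition 3 the median was -0.923 and 4 members were lower. Against condition 2 the list's median with compound D was 0.052. The direct test between GLT with and without compound D called 0 of the 43 genes (median 0.020). These families hold close copies, so reads may be split among their members. The NF-kB and cytokine list had a median of -0.510 and 0 of 35 members past edgeR's test, beside the same share of all genes (9 at an unadjusted p below 0.05, all lower, 1 by DESeq2 and 0 by limma voom). Its most abundant members, the receptor gene Il1r1 (-0.12, 95% interval -1.18 to 0.95) and Nfkb2 (-0.65, -1.71 to 0.41), spread widely.

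Several groups had no member past edgeR's test between condition 6 and condition 3, where 0.716% of all genes passed. At that share lists of this size may hold no call. For cholesterol synthesis it was 0 of 28 (8 at an unadjusted p below 0.05, 1 by DESeq2), where the median was 0.231 and Cyp51, a sterol demethylase, had 286, 317 and 331 CPM with compound D, 374, 364 and 323 CPM with GLT alone and 158, 237 and 175 CPM in condition 3 (log2 0.72, 95% interval 0.24 to 1.21, adjusted p = 0.169). For apoptosis regulators it was 0 of 35 (6 and 0), with a difference of -0.12 (-0.50 to 0.27) for the survival factor Mcl1. Cell cycle genes gave 0 of 47 (3 and 1), metallothioneins and zinc transporters 0 of 23 (3 and 0), glycolysis and hypoxia genes 0 of 31 (2 and 1) and activin and BMP signalling genes 0 of 36 (7 and 1), and limma voom called 0 in each of these 6 lists. Of the cell cycle genes Ccnd1, cyclin D1, differed by 0.29 (-0.03 to 0.62). Among glycolysis genes, Gapdh had 1217, 1548 and 1436 CPM with compound D and 1041, 75.2 and 1171 CPM in condition 3. The low value is that of the library that stood apart, and without it the log2 difference of 0.95 became 0.30. Slc30a8, the zinc transporter of insulin granules, differed by -0.57 (-1.07 to -0.07) and Smad1, a BMP signal transducer, by -0.01 (-0.34 to 0.33). Tph1 was the single member to pass on the list of disallowed genes (24 tested, 21 below 0) and on that of efflux pumps, receptors and serotonin synthesis (21 tested), beside 0.254% of all genes lower. Against condition 2, cholesterol synthesis had 0 members higher and 6 lower, apoptosis regulators 1 and 5, and cell cycle genes 0 and 8. Metallothioneins and zinc transporters had 1 and 3, glycolysis and hypoxia genes 2 and 2, and activin and BMP signalling genes 1 and 11. A list without a call does not show that the conditions are alike.

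**Figure D4:**
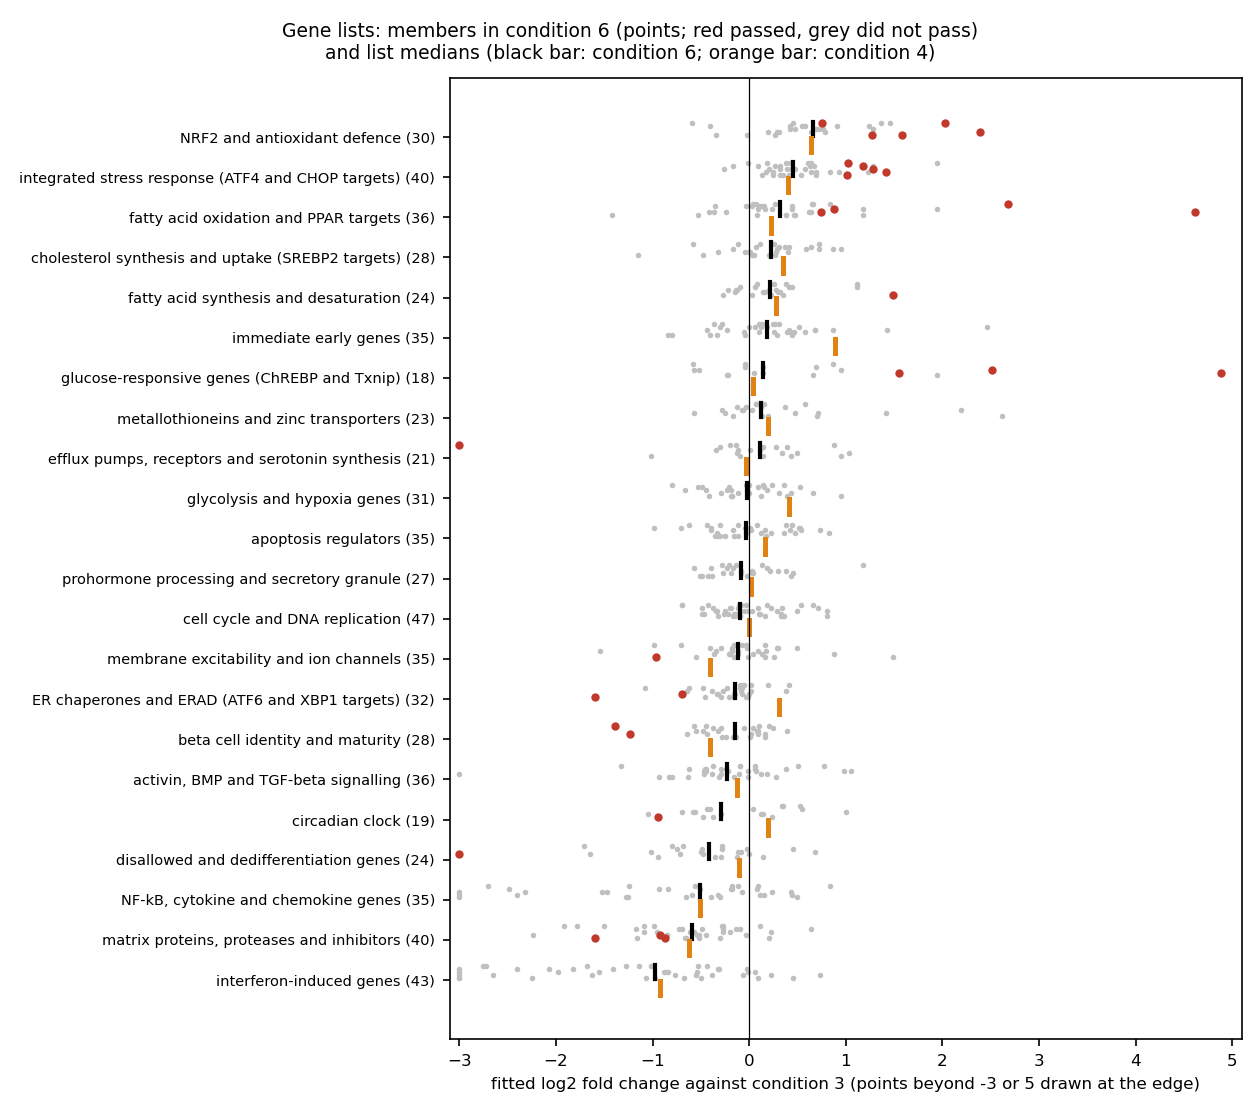
The 22 gene lists with the number of genes tested, ordered by their median. Points are the fitted log2 fold changes of the members, condition 6 over condition 3 (red where the gene passed), the black bar is their median and the orange bar below it the median of condition 4 over condition 3. The NRF2 and integrated stress response lists have the highest medians in condition 6 (0.665 and 0.454) and the interferon list the lowest (-0.970), while the immediate early list has its orange bar at 0.885 and its black bar at 0.186.

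Relative to condition 3, the 90 genes left with compound D thus held several patterns in GLT alone. They were selected for a gap between conditions 6 and 3, which by itself favours a condition 4 mean lying between those conditions. No share over all genes tested was set beside the counts that follow. The counts therefore describe these 90 genes and do not set them apart from other genes. The mean of condition 4 lay between those of conditions 6 and 3 for 42 of the 58 higher and 24 of the 32 lower genes, above both for 11 and 5, and below both for 5 and 3. Zfand2a, a zinc finger stress gene chosen after its values were seen, is 1 of those above both, with 152, 83.2 and 158 CPM with compound D, 219, 138 and 309 CPM with GLT alone and 74.9, 44.7 and 98.4 CPM in condition 3. Its groups overlapped between preparations, and within them it rose 1.84-fold (log2 0.88, SE 0.13, adjusted p = 0.00638). Against condition 2 its sign was the opposite, and it did not pass (-0.34, SE 0.13).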

How the data were processed

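Per the labels' protocols, the authors sequenced total RNA as paired 100 bp reads, aligned them with TopHat2 2.0.3, which used Bowtie2 2.0.0, to the rn5 build, and counted reads per gene with HTSeq. The deposited values are raw counts of 17025 genes. A further 5 lines name no gene and entered neither library sizes nor tests: over the 21 libraries, 10.3% to 18.7% of reads lay outside genes, 4.92% to 23.4% had several alignments and 0.161% to 2.32% fell in more than 1 gene. Strand setting and annotation were not given in the sources used here, so overlapping and antisense genes cannot be told apart. Depth was 22.3 to 40.2 M counts in genes.

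All 21 libraries were fitted with edgeR 4.0.16 (R 4.3.3, limma 3.58.1, DESeq2 1.42.0) on condition and preparation terms, after filterByExpr (12576 genes left) and scaling by TMM. The quasi-likelihood test was 2-sided with Benjamini-Hochberg adjustment over all genes, passing below 0.05. Changes are given as the log2 coefficients of this fit. Standard errors and 95% intervals come from its F statistic, which includes the estimated spread between libraries. The preparation is a block because the design divides each isolation over the conditions: residuals of conditions 6 and 3 of the same preparation correlated at -0.00974, 0.138 and 0.381. Libraries of a condition differed by more than counting error (chi-square per degree of freedom at least 30.0), so none was counted as a duplicate. The fit was tested on simulated counts first.

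The comparison, the 22 gene lists and the 12 marker lists were chosen with earlier results of these data known. Of 755 list symbols 687 were tested. Genes are named by a rule: the 12 largest rises and 12 largest falls past the test whose sign agreed over the preparations and whose mean reached 5 CPM in condition 6 or 3, up to 4 members past the test per list (or the 2 most abundant), the hormone genes and Txnip, and the 8 largest changes of GLT alone against condition 3. A few genes that this rule names are not reported here. Promoters came from RefSeq (GRCr8), matched for 70 of the 90 genes, whereas the counts use rn5. Alternatives in scaling, filter, test, libraries and control columns are given at the end.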

Additional observations from a re-analysis of the deposited data

Results flagged for a closer look

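Plagl1 and Tph1 passed in opposite directions against condition 3 with and without the compound. They were flagged by a rule that asked for this and for a pass in the direct test between the 2 GLT conditions. That the direct test passed for both thus follows from the rule. Plagl1 differed between GLT with compound D and GLT alone by -3.63 on the log2 scale (SE 0.36, adjusted p = 1.26e-04), lower in 3 of 3 preparations. Tph1 differed by -5.81 (SE 0.77, adjusted p = 0.00107), also lower in 3 of 3, with compound D libraries of 1, 2 and 15 counts.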

How the results depend on the processing

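Counts below are for condition 6 against condition 3, condition 4 against condition 3 and condition 6 against condition 4, which gave 90, 751 and 513 genes. Library size only, without TMM, gave 23, 292 and 215 genes, with 82.6% of the first higher in place of 64.4% and the median of all genes at 0.0872. DESeq2 called 381, 1285 and 904. A fit of only the conditions compared called 0 (715 at an unadjusted p below 0.05), 357 and 274, and one of conditions 3, 4 and 6 called 4, 337 and 235. These fits have fewer libraries from which to estimate the spread. Without the preparation as a replicate block the counts were 19, 305 and 220. Leaving out libraries or whole preparations gave 0 to 158, 15 to 455 and 0 to 620. The lowest were without preparation 1 (0, 15 and 0, with 1443 genes at an unadjusted p below 0.05 in the first and 1487 in the third), without preparation 3 it was 4, 90 and 87 and without preparation 2 36, 455 and 234. The 158 came from leaving out the condition 8 library of preparation 1, an alternative added after seeing the data. Condition 2 as control gave 1576 in the first. RLE factors, removal of Rn45s and the insulin genes, both filters and limma voom stayed within 1.5 times of each count. The cause of these differences was not tested.

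All 39 named genes that passed kept their sign in all 21 alternatives fitted per gene, to which condition 2 as control does not belong. Against condition 2, 15 of the 90 genes had the opposite sign. Of 33 named genes that did not pass, 14 had the other sign in at least 1 alternative, among them Smad1, Il1r1, Gcg, Ins1 and Il23a. Over all 72 named genes, 366 values lost the call, 2 gained it and 1141 stayed on their side of the threshold. Plagl1 passed in 18 of 21 alternatives, Sfrp5 and Iapp in 17, and Avpr1b, Dgat2 and Cpt1a in 7. At these depths Tph1, Gpr50 and Atp12a rest on few counts, and 3 pools of islets per condition limit the smaller changes.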
